A study of Mus musculus with 3 samples.

Results

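The cytochrome P450 (Cyp) genes were followed in intestinal epithelial cells (IEC) that had shared a culture with type-3 innate lymphoid cells (ILC3). The family was taken as the protein-coding genes with a GRCm38 symbol of the form Cyp, a family number, a subfamily letter and a gene number, which leaves out Cyp51. This gave 93 members among 35824 genes of the count table, of which 28 had 10 or more estimated counts in every library. A further 15 members reached 10 counts in 1 or 2 libraries, 8 had between 1 and 9 counts at most, and 42 were at 0 in all 3 libraries. There are 3 libraries of 1 condition (IEC + ILC3 A, B and C), called biological replicates by the labels. Small intestinal organoids (SIO), epithelial cultures grown in Matrigel from crypts of female CD45.1 C57BL/6 mice of 6 to 8 weeks (6 to 10 in the series' design text), were cultured with ILC3 of the small intestine for 4 days, and IEC were then sorted by FACS. The labels mark A and B as included in the final analysis and C as excluded from it, and no reason for this was found in the labels or the paper. IEC ONLY cultures were not analysed here, so nothing below measures an effect of ILC3.

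P450 enzymes are heme proteins that add an oxygen atom to their substrate, with electrons passed on from NADPH by a redox partner. Families 1, 2 and 3 mostly oxidise drugs, toxins, dietary compounds and fatty acids and are abundant in liver and in the villus enterocytes of the small intestine, whereas most other families serve fixed steps in the turnover of steroids, bile acids, vitamin D and retinoic acid. Many family 1 to 4 genes lie in tandem arrays of similar copies, and several are switched on by ligand-bound receptors such as the aryl hydrocarbon receptor (AHR), the pregnane X receptor (Nr1i2) and the constitutive androstane receptor (Nr1i3).

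Total counts were 17946361, 23142849 and 28913885 for A, B and C. Library C, although the deepest, had the fewest genes with 10 or more counts (11986, against 12549 and 12964). Levels are CPM, counts scaled to a common library size with TMM factors, and CPM per kilobase of transcript wherever different genes are ranked. A gene at 0 may have had up to 3 counts, which is 0.166 CPM in A, 0.13 CPM in B and 0.105 CPM in C. These floors and the Poisson intervals below cover counting error only, since the reads carry no molecular identifiers. The summed level of 6 epithelial markers was 10500 to 12280 CPM. The 7 ILC3 and lymphocyte markers reported here summed to 0.105 to 3.85 CPM, most of it Thy1, with Il22, Il23r, Cd3e and Gata3 at 0 and at most 1 count of Ptprc. Of 8 hepatocyte markers, 5 were at 0 in every library (Alb, Fgb, Fga, Hpx and Ahsg), and the list summed to 15.5 to 19.1 CPM. Most of this was Ttr, at 14.6, 12.2 and 15.5 CPM in A, B and C. Serpina1c had 58, 159 and 0 counts and Tat 20, 0 and 0.

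Together the 93 genes had 92249 counts in A, 61733 counts in B and 148640 counts in C, or 0.514%, 0.267% and 0.514% of each library. Their summed level was 5090 CPM in A, 2671 CPM in B and 5185 CPM in C, with a mean of 4315 ± 1425 CPM (SD, n = 3) and of 3881 ± 1711 CPM over A and B alone (SD, n = 2). Library B was thus the low one, 1.91-fold below A and 1.94-fold below C, while A and C lay within 1.02-fold of each other. A few genes carried most of this sum. Cyp2b10, Cyp2c65 and Cyp2c66 were the 3 highest members in every library and together held 52.2%, 46.8% and 53.5% of the P450 CPM in A, B and C, and the 10 highest members held 84.8% to 89.2%.

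Family 2 genes made up 75.1% of the P450 CPM. Of its 47 members, counted without Cyp2r1, which is placed with the vitamin D genes, 12 had 10 or more counts in every library and 20 were at 0, and its sum was 3874 CPM in A, 1867 CPM in B and 3986 CPM in C. Family 4, which mainly hydroxylates fatty acids and eicosanoids, followed with 11.7%, family 3 with 10.1% and family 1 with 2.0%. The members with fixed steps in steroid, vitamin D, retinoic acid, bile acid and sterol turnover made up little of the sum, with 0.427% for the bile acid and sterol group and 0.0342% for the steroid group.

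**Figure D1:**
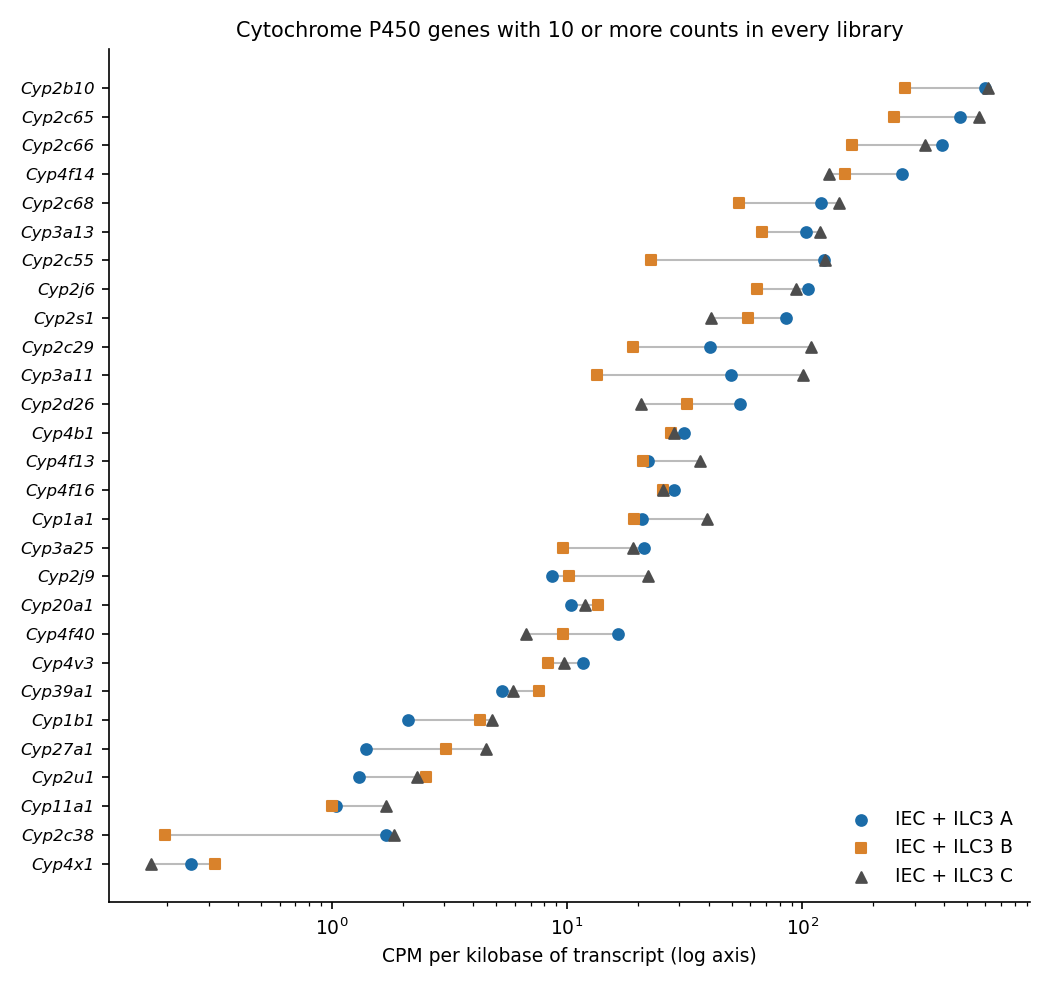
Level of each of the 28 P450 genes with 10 or more counts in every library, as CPM per kilobase of transcript on a log axis, with 1 point per library (A, circles; B, squares; C, triangles) and a grey line from the lowest to the highest library. Library B has the lowest point for Cyp2b10, Cyp2c65, Cyp2c66, Cyp2c68, Cyp2c55, Cyp2c29 and Cyp3a11, whereas the points of Cyp4b1 and Cyp4f16 lie almost on top of each other.

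Most of the family 2 signal came from the Cyp2c array, 14 genes on chromosome 19 between 39007019 and 40187333 of GRCm38. This array held 41.0% of the P450 CPM, with 2076 CPM in A, 908.8 CPM in B and 2321 CPM in C. Only 6 of its genes had 10 or more counts in every library, and 5 were at 0 in all of them (Cyp2c39, Cyp2c50, Cyp2c54, Cyp2c67 and Cyp2c69), although neighbouring copies were among the most abundant members. Of the 31-base words of Cyp2c67 and Cyp2c69 only 32.4% and 34.1% occurred in no other gene, so these zeros are uncertain. That share was 52.7% to 73.1% for Cyp2c39, Cyp2c50 and Cyp2c54. Upstream bases are shown as examples for 5 of the 6 genes with 10 or more counts in every library. They are the 120 bases before the RefSeq start (GRCm38.p6, 5′ to 3′ on the strand of the gene). Cyp2c68, also lower in B than in A (2.25-fold), is not among the 5. Capitals mark TATAAA, the TATA box core, and CAAAGT, the shared part of many HNF4 sites, on either strand.
Cyp2c65: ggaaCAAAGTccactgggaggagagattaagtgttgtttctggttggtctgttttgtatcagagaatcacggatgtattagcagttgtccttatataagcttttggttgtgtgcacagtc
Cyp2c66: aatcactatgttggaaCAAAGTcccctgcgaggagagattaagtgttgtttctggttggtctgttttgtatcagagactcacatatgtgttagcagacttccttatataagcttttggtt
Cyp2c55: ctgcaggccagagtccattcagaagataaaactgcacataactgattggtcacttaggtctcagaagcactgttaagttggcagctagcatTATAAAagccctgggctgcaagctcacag
Cyp2c29: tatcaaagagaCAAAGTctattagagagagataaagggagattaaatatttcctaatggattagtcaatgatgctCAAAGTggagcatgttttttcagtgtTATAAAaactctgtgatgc
Cyp2c38: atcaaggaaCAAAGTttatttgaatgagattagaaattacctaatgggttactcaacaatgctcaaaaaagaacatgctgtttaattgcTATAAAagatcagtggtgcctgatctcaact

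These windows are chr19:39060886-39061005 (plus strand) for Cyp2c65, chr19:39113778-39113897 (plus) for Cyp2c66, chr19:39006899-39007018 (plus) for Cyp2c55, chr19:39286965-39287084 (plus) for Cyp2c29 and chr19:39463076-39463195 (minus) for Cyp2c38. Over 250 upstream bases Cyp2c65 and Cyp2c66 were 94.1% identical, and Cyp2c29 and Cyp2c38 82.0%. RefSeq promoter windows (250 bases before to 50 after a start) were found for 72 of the 93 members and 13 of the 14 Cyp2c genes of the array. Searched on both strands, CAAAGT was in 92.9% of the 14 windows of these 13 genes, in 41.5% of the 82 windows of P450 members and in 14.4% of all 32851 promoter windows. The TATA box core was in 10 of the 14 windows, in 32 of the 82 and in 13.6% of all. Both motifs were picked after the windows had been read, the array shares its ancestry, and a match is a run of letters and not a bound site.

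Cyp2c65 and Cyp2c66, whose products oxidise arachidonic acid, lie next to each other from 39061015 to 39093944 and from 39113898 to 39187072. Cyp2c65 was at 902.7 CPM in A, 471.5 CPM in B and 1085 CPM in C, and Cyp2c66 at 640.6, 265.1 and 539.4 CPM. Their longest open reading frames were 96.3% identical and 33.5% of the 31-base words of Cyp2c65 transcripts also occurred in Cyp2c66, so the split of reads between this pair is uncertain. Cyp2c68, at 207.7, 92.4 and 247.4 CPM, is less certain still, since only 38.0% of its 31-base words occurred in no other gene and 53.6% were shared with Cyp2c40. Cyp2c40 had 12, 6 and 11 counts and was singled out here after its values were seen.

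Cyp2c55, another arachidonic and linoleic acid oxidase, was at 246.0 CPM in A, 45.3 CPM in B and 249.7 CPM in C. A and C were nearly equal and B lay 5.43-fold below A. Its transcripts were distinct, with 96.6% of 31-base words in no other gene. Cyp2c38 was also lowest in B, at a much lower level, with 88 counts (4.86 CPM) in A, 13 counts (0.563 CPM) in B and 151 counts (5.27 CPM) in C, so that B lay 8.63-fold below A. Cyp2c29, which is abundant in mouse liver, was at 71.7 CPM in A, 33.6 CPM in B and 193.7 CPM in C. Here C stood above both other libraries and lay 5.76-fold above B.

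Cyp2b10, the classic target of Nr1i3 in mouse liver, was the most abundant member, at 1113 CPM in A, 512.2 CPM in B and 1148 CPM in C. Its mean of 494.6 ± 191.2 CPM per kilobase (SD, n = 3) was rank 211 among all genes with a transcript length. It lies on chromosome 7 from 25897620 to 25926624, in a block of 13 members of subfamilies 2a, 2b, 2f, 2g, 2s and 2t, of which 9 were at 0 in every library, including all 4 Cyp2a genes. The only other member of that block with 10 or more counts in every library was Cyp2s1, an AHR-inducible enzyme of epithelia, at 183.7 CPM in A, 126.8 CPM in B and 88.0 CPM in C. In Cyp2s1 the low library was therefore C and not B.

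Of the Cyp2j genes, which epoxidise arachidonic acid, Cyp2j6 was at 382.1, 231.9 and 339.5 CPM in the libraries A, B and C. Cyp2j9 was at 17.7, 20.7 and 44.9 CPM, and here A and B lay close together with C above them. Cyp2d26 was at 92.5 CPM in A, 54.8 CPM in B and 35.0 CPM in C and was the only one of 8 Cyp2d genes with 10 or more counts in every library.

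Family 3 holds the main drug-oxidising enzymes of liver and gut, and 3 of its 7 genes had 10 or more counts in every library. Cyp3a13, which stands alone on chromosome 5 from 137892932 to 137921619, was the most abundant and the steadiest, at 305.2 CPM in A, 199.8 CPM in B and 349.6 CPM in C. Cyp3a11, a pregnane X receptor target in liver, was at 116.8 CPM in A, 31.5 CPM in B and 235.4 CPM in C, a 7.47-fold range between B and C. Of its 31-base words 66.2% occurred in no other gene, and 17.3% were shared with Cyp3a41a, a gene whose symbol falls outside the rule, so its level is uncertain. Cyp3a25, at 26.8, 12.1 and 23.9 CPM, also had its lowest value in B, but 42.0% of its 31-base words were shared with Cyp3a59. Cyp3a11 and Cyp3a25 lie in an array of 6 genes on the same chromosome, from 145345279 to 146113287, 3 of them at 0 in every library (Cyp3a16, Cyp3a44 and Cyp3a57).

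The sum of family 4 differed in pattern from those of families 2 and 3. It was 664.2 CPM in A, 437.1 CPM in B and 416.1 CPM in C, so that B and C lay together below A. Cyp4f14, which inactivates leukotriene B4, made up most of this sum at 444.3, 254.3 and 217.3 CPM. Cyp4f40 had the same order at 33.4, 19.5 and 13.6 CPM, as had Cyp2s1 and Cyp2d26 of family 2. Cyp4f13 was at 28.5, 27.2 and 47.4 CPM, with C highest. Cyp4b1, at 47.5, 41.7 and 42.8 CPM, and Cyp4f16, at 63.8, 57.0 and 57.3 CPM, were the steadiest of the 20 highest members, their highest library being 1.14-fold and 1.12-fold above the lowest. Cyp4f16 shares 33.3% of its 31-base words with Cyp4f37. Of the 5 Cyp4a genes, fatty acid hydroxylases induced by Ppara in liver, 4 were at 0 in every library and the summed level was at most 0.216 CPM, next to 15.3, 16.2 and 10.7 CPM of Ppara.

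**Figure D2:**
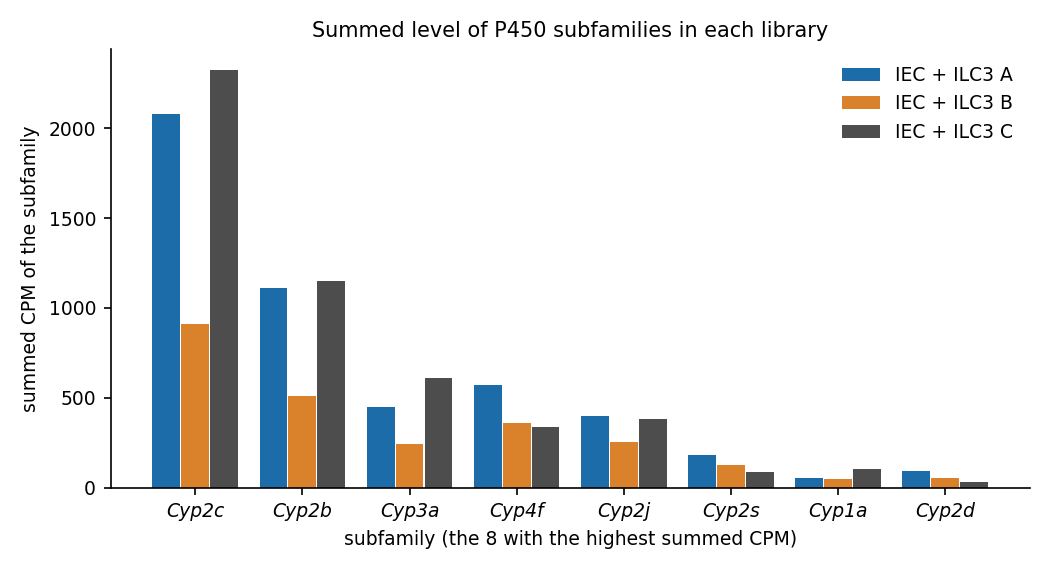
Summed CPM of the 8 P450 subfamilies with the highest sums, with 1 bar per library from a baseline of 0. Cyp2c, Cyp2b, Cyp3a and Cyp2j are lowest in B, whereas Cyp4f, Cyp2s and Cyp2d are lowest in C and Cyp1a is highest in C.

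Family 1 holds the classic targets of AHR. Cyp1a1, which oxidises polycyclic aromatic compounds and AHR ligands themselves, was at 55.3 CPM in A, 51.3 CPM in B and 104.5 CPM in C. A and B agreed within 1.08-fold and C lay 2.04-fold above B. Cyp1a2 was at 0 in every library. Cyp1b1, named after its values were seen, was at 8.99 CPM in A, 18.2 CPM in B and 20.5 CPM in C, so that here A was the low library. The 120 bases upstream of both RefSeq starts (GRCm38.p6) are shown with GCGTG, the core of the AHR response element, or its complement CACGC in capitals, at chr9:57697493-57697612 (plus strand) for Cyp1a1 and chr17:79715062-79715181 (minus strand) for Cyp1b1.
Cyp1a1: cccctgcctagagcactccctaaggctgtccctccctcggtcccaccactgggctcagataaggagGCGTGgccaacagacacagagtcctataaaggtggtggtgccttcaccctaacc
Cyp1b1: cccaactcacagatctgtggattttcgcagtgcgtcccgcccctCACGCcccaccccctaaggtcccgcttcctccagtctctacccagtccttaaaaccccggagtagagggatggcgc

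GCGTG or CACGC was in 32.4% of all promoter windows and in 19.5% of the 82 windows of P450 members, and such a short word says nothing of binding. Ahr itself was at 31.1 CPM in A, 25.8 CPM in B and 7.25 CPM in C and was called lower in C (log2 fold change −1.97, standard error 0.44, adjusted p = 0.0626, edgeR). Of 4 tested genes in a list of AHR-responsive genes outside the family, 1 was called: Tiparp, a repressor of AHR, at 49.2, 28.9 and 99.8 CPM, higher in C (log2 fold change 1.35, standard error 0.36, adjusted p = 0.094). Ugt1a6a, at 399.9, 270.7 and 536.0 CPM, and Nqo1, at 127.0, 109.6 and 157.1 CPM, were not called, with adjusted p of 0.257 and 0.406. Ahrr, the remaining tested gene, had 48, 6 and 17 counts (2.65, 0.26 and 0.593 CPM) and was not called. Its log2 fold change in C was −1.28, with a standard error of 1.93. Aldh3a1 was at 0.

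Among the 6 members of steroid hormone synthesis, 4 were at 0 in every library (Cyp11b2, Cyp17a1, Cyp19a1 and Cyp21a1). Cyp11a1, which cleaves the cholesterol side chain in the first step of steroid synthesis, had 22 counts in A, 27 counts in B and 57 counts in C, or 1.21, 1.17 and 1.99 CPM. It was not called in C (log2 fold change 0.74, standard error 1.36, adjusted p = 0.78). Of the 9 other genes of this pathway listed, Hsd3b1, Hsd3b6, Hsd17b1 and Hsd11b1 were at 0. Star, which brings cholesterol to the mitochondrion, had 10, 17 and 0 counts in A, B and C. In the same libraries Hsd3b2 had 30, 51 and 59 counts, Hsd17b2 278, 223 and 368, and Stard3 1054, 1979 and 1461. Of the 5 genes of that list that were tested, 1 was called: Hsd11b2, which inactivates glucocorticoids, had 140 counts in A, 240 counts in B and 0 counts in C and was lower in C (adjusted p = 0.0206).

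The 3 vitamin D genes were nearly silent. Cyp2r1 and the breakdown enzyme Cyp24a1 were at 0 in every library, and Cyp27b1, which makes the active hormone, had 20 counts in A (1.10 CPM, 95% Poisson interval 0.674 to 1.70) and 0 in B and C. The vitamin D receptor Vdr was at 224.9, 202.6 and 117.6 CPM in the same libraries. All 3 Cyp26 genes, which break down retinoic acid, were at 0. Of the 6 bile acid and sterol members, Cyp7a1, the rate-limiting enzyme of bile acid synthesis in liver, was at 0 together with Cyp7b1, Cyp8b1 and Cyp46a1. Cyp39a1, an oxysterol hydroxylase, was at 10.8, 15.5 and 12.0 CPM. Cyp27a1, the mitochondrial sterol hydroxylase, was at 2.65 CPM in A, 5.80 CPM in B and 8.55 CPM in C, with A lowest. Cyp20a1, whose substrate is not known, was at 23.1, 30.2 and 26.4 CPM.

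Members with few counts often appeared in a single library. Of the 15 members with 10 or more counts in 1 or 2 libraries, Cyp4f18 (31 counts) and Cyp3a59 (27 counts) were found in B and at 0 in A and C. Cyp2d22 (23 counts), Cyp2d10 (20), Cyp27b1 (20), Cyp2c37 (12) and Cyp2c70 (12) were found in A and at 0 in B and C. Cyp2c23 had 27 counts in C, 1 in A and 0 in B. No single library held them all, and none of those tested was called in C. Cyp3a59 shares 42.3% of its 31-base words with the far more abundant Cyp3a25, and Cyp2c37 shares 34.2% with Cyp2c50, so their counts are uncertain.

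The other low members named here had 10 or more counts in 1 library or in a pair of them. Cyp2w1, at 39 counts in A, 4 counts in B and 42 counts in C, was lowest in B, as was Cyp2c55. Cyp4f39 had 25, 34 and 0 counts and Cyp2j8 12, 47 and 0, both without a count in C, the deepest library. Cyp4f17 had 4, 45 and 5 counts, Cyp2d34 had 1, 26 and 0, and Cyp2e1, a main ethanol-oxidising P450 of liver, had 2, 12 and 2.

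**Figure D3:**
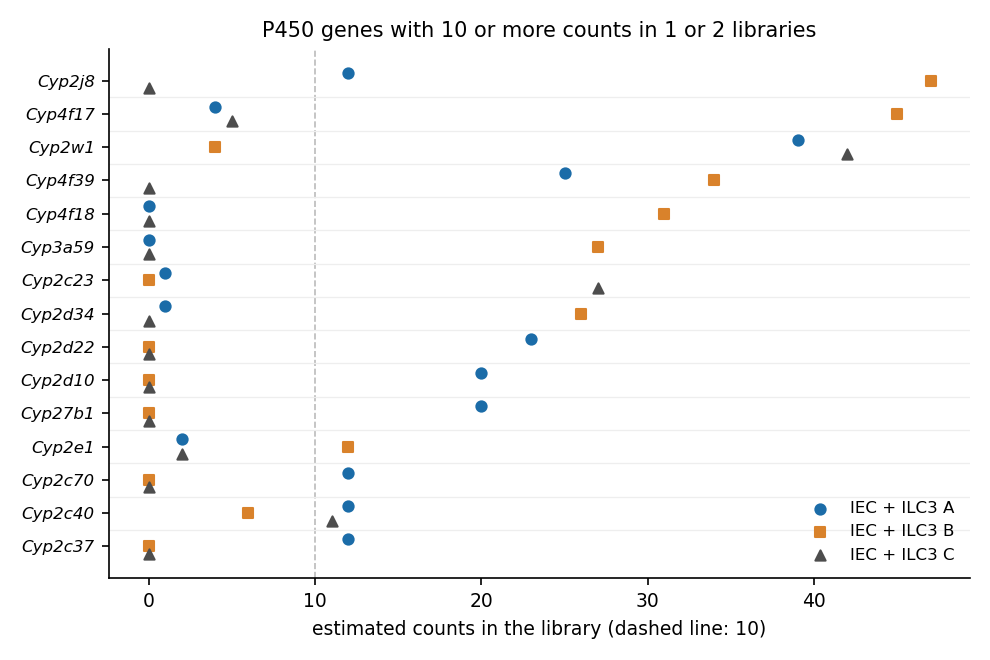
Estimated counts in each library (A, circles; B, squares; C, triangles) for the 15 P450 genes with 10 or more counts in 1 or 2 libraries, with a dashed line at 10. Cyp2j8, Cyp4f17, Cyp4f39, Cyp4f18, Cyp3a59 and Cyp2d34 are highest in B, and 5 genes have counts in A alone.

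Library B was compared with A for the 28 members with 10 or more counts in every library. With 1 library on each side this is a set of values without a replicate check. B was lower for 21 of 28 members (75.0%, against 51.9% of 11232 genes with the same minimum), and the median log2 ratio of B to A was −0.57 against −0.02 for those genes. It was at least 2-fold lower for 8 members, where 5.36% of the 11232 genes were, and at least 2-fold higher for 2, where 4.99% were. The 8 were Cyp2c38, Cyp2c55, Cyp3a11, Cyp2c66, Cyp2c68, Cyp3a25, Cyp2b10 and Cyp2c29, which all belong to families 2 and 3, and Cyp2c65 lay just outside at 1.92-fold. The 2 that were higher in B were Cyp27a1 (2.19-fold) and Cyp1b1 (2.02-fold). Tandem copies share sequence and these genes are not independent of each other.

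The markers of cell types also differed between A and B. The 9 enterocyte markers reported here, which include Alpi, Fabp1, Apoa4 and Sis, summed to 5127 CPM in A, 3442 CPM in B and 4524 CPM in C, and all 8 with 10 or more counts in every library were lower in B than in A. The 6 Paneth cell markers summed to 8679, 11400 and 13500 CPM, the 6 stem cell markers to 7006, 8830 and 7125 CPM and the 7 goblet cell markers to 2309, 2851 and 1550 CPM. Relative to the enterocyte sum, the P450 sum was 0.993 in A, 0.776 in B and 1.15 in C. The enterocyte sum was 1.49-fold lower in B than in A, against 1.91-fold for the P450 sum, and 1.31-fold higher in C than in B, against 1.94-fold. Both sums thus had their lowest value in B, but the enterocyte markers did not all follow their sum. Alpi, Fabp1, Fabp2, Apoa4 and Anpep were lowest in B, with Fabp1 at 518.0 CPM in B and 1293 CPM in C. Sis, Mttp and Slc5a1 were lowest in C, with Sis at 505.8 CPM in B and 260.5 CPM in C. Whether the enterocyte content has a part in the P450 values was not tested. In such bulk samples fewer cells of a type and less RNA per cell cannot be told apart.

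Of 8 partner genes, which pass electrons to P450 enzymes, bind them or make heme, all had 10 or more counts in every library and 7 were lower in B than in A. They summed to 2852 CPM in A, 1996 CPM in B and 2854 CPM in C. The 3 highest per kilobase were Cyb5a at 647.1, 468.6 and 900.5 CPM, Cyb5r3 at 620.2, 385.3 and 568.5 CPM and Cyb5b at 798.5, 567.9 and 762.7 CPM. None of the 8 was called in C. Por, the reductase that serves the microsomal P450 enzymes and was singled out after its values were seen, was at 332.8 CPM in A, 243.3 CPM in B and 131.3 CPM in C (log2 fold change −1.13, standard error 0.33, adjusted p = 0.108), an order unlike that of the P450 sum.

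**Figure D4:**
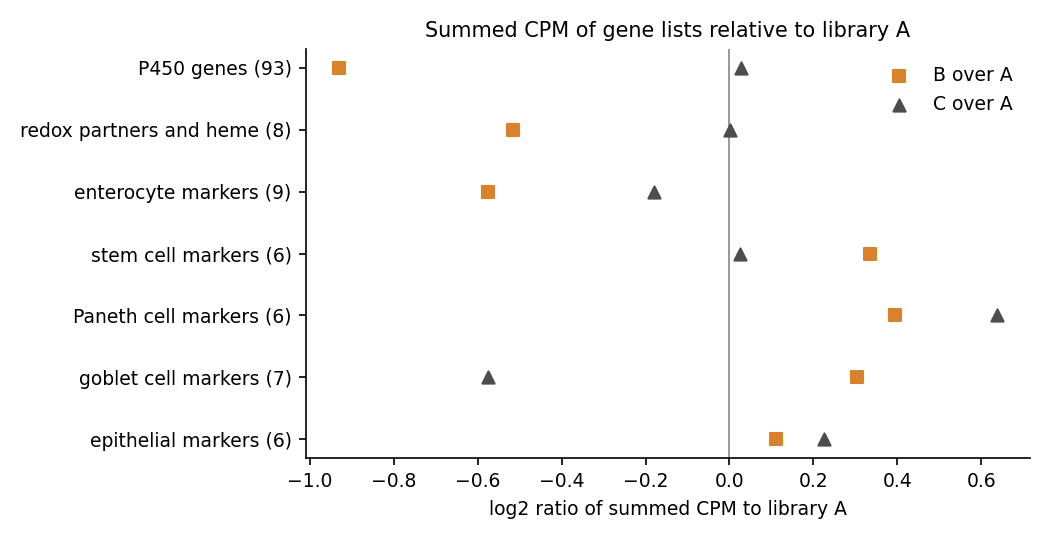
Summed CPM of the P450 genes and of lists of partner and marker genes in B (squares) and C (triangles), as a log2 ratio to library A, with the number of genes in brackets. The P450 and enterocyte sums are the lowest points in B, while in C the P450 sum is close to that of A and the enterocyte sum lies between those of A and B.

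Library C was then set against A and B with edgeR's quasi-likelihood test, the only contrast the labels offer. It compares libraries and not conditions, with 1 residual degree of freedom, and an exact permutation of 1 library against 2 cannot go below p = 0.333. Of 13604 genes tested, 187 (1.37%) were called higher in C and 711 (5.23%) lower at an adjusted p under 0.1, so 20.8% of the calls were higher. That share was 33.4% with only genes of 10 or more counts in every library and 34.4% with no filter beyond 1 count, and it was 18.2% with DESeq2 size factors and 13.2% with the trend with transcript length removed. The test covered 41 of the 93 members, and the 52 others had too few counts.

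Of these 41 members, 1 was called higher in C (against 1.37% of all genes) and 0 lower (against 5.23%). DESeq2 called 4 members, of which Cyp4f39 was lower in C, next to 1618 of all 13604 genes. Cyp2c29, on chromosome 19 from 39269405 to 39330713, was higher in C by a log2 fold change of 1.88 with a standard error of 0.41 (3.68-fold, adjusted p = 0.0605). C alone was above A by 1.43 and above B by 2.53 on the log2 scale. Over 6 other ways of fitting it was called each time, with adjusted p from 1.65e-07 to 0.0972, but not at an adjusted p under 0.05 in the fit reported. Cyp2c29 overlaps the pseudogene Cyp2c53-ps, with which 8.7% of its 31-base words were shared.

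Cyp2j9 (log2 fold change 1.23, standard error 0.35, adjusted p = 0.103), Cyp1a1 (0.97, 0.28, 0.108) and Cyp3a11 (1.67, 0.60, 0.159) came next among members with higher values in C. Over the 6 alternatives the adjusted p ran from 0.0248 to 0.136 for Cyp2j9, from 0.03 to 0.118 for Cyp1a1 and from 4.69e-06 to 0.188 for Cyp3a11. At an unadjusted p under 0.05 there were 9 members of 41 (5 higher and 4 lower), and 22.3% of all genes tested. Those lower in C were Cyp2d26, Cyp2s1, Cyp4f39 and Cyp2j8, with adjusted p between 0.159 and 0.203.

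Of the 28 members, C lay above both A and B for 14 (against 41.1% of all genes with the same minimum), below both for 5 (17.9%, against 38.8%) and between them for 9. Their median log2 fold change was 0.38, against 0.004 for all genes with the same minimum. This sets C against A and B together, whereas the P450 sum in C was 1.94-fold that of B and 1.02-fold that of A. Cell type markers differed in C as well: 4 of 7 goblet cell markers and 3 of 4 tested tuft cell markers were called lower, the latter (Dclk1, Trpm5 and Pou2f3) at 0 counts in C, and 0 of 8 tested enterocyte markers were called. Whether these differences have a part in the P450 values was not tested. The labels name no batch, so a difference in handling and the exclusion of C cannot be told apart.

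**Figure D5:**
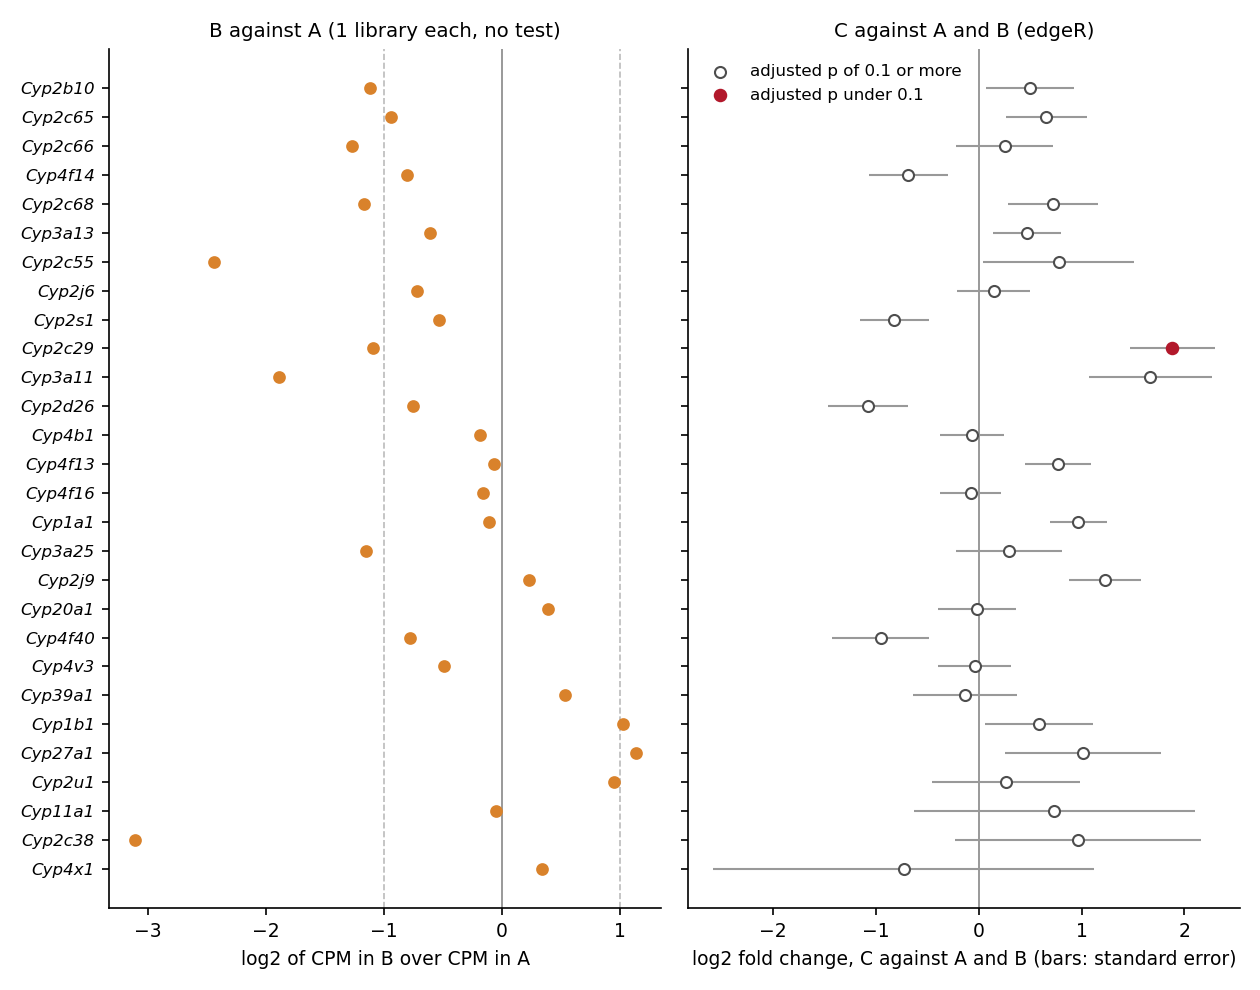
Differences between libraries for the 28 P450 genes with 10 or more counts in every library. Left, log2 of CPM in B over CPM in A, with dashed lines at a 2-fold difference; right, log2 fold change of C against A and B with its standard error from edgeR, where Cyp2c29 (filled) is the only gene with an adjusted p under 0.1.

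Among 17 regulators of P450 genes, 15 were tested and Ahr was the only one called. The 3 highest per kilobase were Vdr, given above, and the nuclear receptors Hnf4a, at 368.5, 308.5 and 203.0 CPM, and Hnf4g, at 146.3, 87.8 and 120.7 CPM in A, B and C. Hnf4a was not called (log2 fold change −0.74, standard error 0.30, adjusted p = 0.202). The pregnane X receptor Nr1i2, at 66.0, 64.7 and 82.9 CPM, and Nr1i3, at 48.4, 53.2 and 46.9 CPM, were named after their values were seen. The remaining members were Cyp4v3, at 31.6 to 44.3 CPM, Cyp2u1, at 3.97 to 7.66 CPM, and Cyp4x1, at 0.488 to 0.909 CPM, also named after their values were seen. Cyp4x1 has an antisense partner, Cyp4x1os, and the library protocol keeps no strand, so reads from the stretch they share cannot be told apart. Of the 31-base words of Cyp4x1, 10.2% were shared with Cyp4x1os and 77.5% occurred in no other gene.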

How the data were processed

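The authors made SMART-Seq2 libraries (full-length cDNA, no strand kept). According to the paper and the submitters' processing notes, reads were trimmed with Trimmomatic 0.39, transcripts of Ensembl GRCm38.p6 were quantified with Salmon 0.14.1, and gene values were made with tximport. The deposited table holds estimated counts, as whole numbers, for each gene ID. Symbols, coordinates and transcript lengths came from GENCODE M21 of the same build. A symbol was found for 35506 of 35824 genes, and the 318 others took no more than 0.0454% of any library.

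CPM were computed in edgeR 4.0.16 (R 4.3.3) with TMM scaling. CPM per kilobase used the mean length of a gene's protein-coding transcripts. For C against A and B, filterByExpr kept 13604 genes, the quasi-likelihood test of edgeR was run, and p-values were adjusted over all of these genes (Benjamini-Hochberg, threshold 0.1). Standard errors were obtained from the fold change and its F statistic. The script was tested on simulated data, whose outcome is not reported here. The p-values set C against the spread between A and B, moderated by edgeR with that of all genes tested. They thus rest on more than the 1 residual degree of freedom of a single gene. That spread may be technical, and with 1 library of C the p-values cannot measure how such libraries vary. A and B differed by a chi-square of 74.0 per gene, so they are not copies of 1 library.

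The members, gene lists and tests were chosen with earlier results of these data known. Members were named if among the 20 highest by CPM per kilobase, called in C, at least 4-fold apart between libraries with 10 or more counts in at least 1, or in the steroid, vitamin D, retinoic acid or sterol groups. Of the partner, regulator and AHR-responsive lists the 3 highest and the called genes were named. Of the enterocyte and the ILC3 and lymphocyte marker lists, 1 gene each is not reported here and is left out of the sums, so those sums do not cover the whole lists. Sequence identity was computed on the longest open reading frame with Biopython 1.88, and upstream sequences are from RefSeq (GRCm38.p6). Alternatives were other size factors, filters and thresholds, DESeq2 1.42.0, removal of a trend with transcript length, and leaving out libraries. Other steps used Python 3.11.15, pandas 2.3.3, numpy 2.4.6 and, for intervals and figures, scipy 1.17.1 and matplotlib 3.10.9.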

Additional observations from a re-analysis of the deposited data

How the results depend on the processing

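Of the alternatives tried, 6 moved the number of calls in C against A and B by over 1.5 times. The main fit gave 1 member and 898 genes. The members called numbered 8 with no filter beyond 1 count, 4 with genes of 10 or more counts in every library, 4 with DESeq2's Wald test, 3 with plain totals without TMM and 0 at an adjusted p under 0.05. All genes called numbered 2402 of 17457 tested with no filter and 1030 of 11232 with 10 or more counts in every library. Of 13604 genes tested, DESeq2 called 1618 and plain totals without TMM 1246. There were 471 with the length trend removed and 276 at an adjusted p under 0.05. Cyp2c29 was called in every fit, while Cyp1a1 was called in 4 of 6, Cyp2j9 and Cyp3a11 in 3, Cyp4f39 in 2 and Cyp2c55, Cyp2d26 and Cyp2j8 in 1. Beyond the altered filter, test or threshold, the cause was not tested. Summed per kilobase, the P450 level was 2181 and not 4315 because each gene is divided by its length. The 28 members with 10 or more counts became 29 at a minimum of 5 and 26 at a minimum of 20, and 28 to 30 when a library was left out. The summed CPM was 3881 to 5137 when a library was left out, highest without B. The 8 members at least 2-fold lower in B stayed 8 in number under both other scalings, which were added after the data were seen. With all 3 libraries in the fit no fold change of a named member changed sign, but with A or B left out 7 of 24 did, none of them called (Cyp2c66, Cyp2j6, Cyp3a25, Cyp39a1, Cyp20a1, Cyp4b1 and Cyp4f16). The largest moves were those of Cyp2c38, at 0.96 with both, 3.23 against B alone and 0.12 against A alone, of Cyp2c55 (0.78, 2.46 and 0.021) and of Cyp3a11 (1.67, 2.90 and 1.01) on the log2 scale. With exon union lengths, 19 of the 20 highest members were shared. No paired analysis was possible because all 3 libraries belong to 1 group. With 1 library of C and 1 residual degree of freedom, members with large standard errors may differ without being called, and low-count members near the floor cannot be ranked.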
